A study of Homo sapiens with 78 samples.

Results

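Histone-high Jurkat cells are single sorted cells of a human T cell leukaemia line. In them at least 1% of all estimated counts fell on a set of mostly canonical histone genes. The share was taken over 73 protein coding genes with the symbols H1-n, H2ACn, H2BCn, H3Cn and H4Cn. By this rule 12 of 36 Jurkat wells were histone-high and 24 were histone-low, out of 78 wells in the whole series. Each well held 1 cell and gave 1 total RNA library, made on 18 Jurkat cells each with the Pico v2 kit for total RNA (#634413) and the stranded SMART-Seq kit (#634444), all of clone E6-1. The labels give no treatment. The study stained the cells for CD81 and for dead cells and sorted them straight into lysis solution. Both groups thus share line, clone, stain and sort, and were separated by the measured histone share alone. The other 42 wells held cells of A375, a melanoma line sorted in PBS. The labels name no separate cultures, so every p-value below measures the spread between these wells only.

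Canonical histone proteins package new DNA, and in dividing cells their mRNAs accumulate while DNA is copied and disappear when copying ends. Most of these mRNAs carry no poly(A) tail and end instead in a short hairpin, the stem-loop, which is bound by SLBP, the stem-loop binding protein. A total RNA library primed with random primers can hold them, while a library made from the poly(A) tail largely cannot. The wells were chosen by their histone share, so levels of the histone genes are given as a description, and only other genes and measures were tested.

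The hairpin is shown here because it is the feature that most of the counted histone mRNAs share, which the rule did not use. The stretches are read from GENCODE v44 transcripts on GRCh38, 5′ to 3′ on the gene's own strand, with the 16 bases of the stem and loop in capitals.
H4C3, chr6:26104312-26104337, plus strand: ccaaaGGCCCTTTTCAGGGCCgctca
H2AC6, chr6:26124664-26124689, plus strand: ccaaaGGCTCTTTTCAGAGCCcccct
H1-4, chr6:26157090-26157115, plus strand: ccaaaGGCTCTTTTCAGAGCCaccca
H2BC4, chr6:26123467-26123492, minus strand: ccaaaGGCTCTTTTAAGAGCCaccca
H2AX, chr11:119094893-119094918, minus strand: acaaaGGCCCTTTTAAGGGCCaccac
H4C3, H2AC6 and H1-4 are the genes that mark the group, H2BC4 is the H2B gene with the most counts in this group, and H2AX is a histone gene outside the rule. In the first 4 the capitals end 5 or 6 bases before the transcript end, and in H2AX they lie 1024 bases before it, as its annotated transcript runs on. These ends are those of GENCODE v44. The H2AC6 target with the most counts in the quantification was 1654 bases long, and its end may differ. The hairpin word, these 16 bases with the 4th, 10th and 13th left free, was searched on the transcript strand, after the values were seen. It occurred in transcripts of 65 of the 73 rule genes. H1-7, H1-8, H1-10, H2AC15, H2BC10, H3C6 and H4C13 were among those that did not hold it. Outside the rule it occurred in 3 of 10048 tested genes that have a GENCODE transcript (0.0299%), namely ENSG00000282988, H2AX and NOP58. In the histone-high wells 94.8% ± 1.002 (SD, n = 12) of the histone counts lay on transcripts whose GENCODE v44 version holds the word, and in the histone-low wells 87.4% ± 15.5 (SD, n = 24), with the caveat that kallisto divides shared reads between transcripts.

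The histone share of the 6 histone-high wells of kit #634413 was 1.44%, 1.93%, 2.05%, 2.57%, 3.04% and 3.72%. In kit #634444 the 6 histone-high wells had 2.27%, 2.53%, 3.26%, 3.65%, 4.35% and 4.44%. Histone-low wells ranged from 0.0218% to 0.582% with a median of 0.301% in kit #634413, and from 0.160% to 0.632% with a median of 0.308% in kit #634444. The well just inside the threshold was well 9 of kit #634413 at 1.44% (95% Wilson interval 1.42% to 1.47%), and the well just outside was well 16 of kit #634444 at 0.632% (0.618% to 0.646%). No well lay between these values, and the intervals cover counting error only. Both kits gave 6 of 18 histone-high wells (Fisher's exact test, two-sided, p = 1.0), and each of the 6 blocks of 8 neighbouring index numbers held 2 of them among its 6 Jurkat wells. In TPM, which is corrected for transcript length, the share was 2.63% to 7.55% in histone-high wells and 0.00854% to 0.937% in histone-low wells. None of the 42 A375 wells reached 1% (highest 0.675%, median 0.0894%), nor did any of the 33 A375 wells with at least 200000 counts, so the same comparison could not be made in A375.

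**Figure D1:**
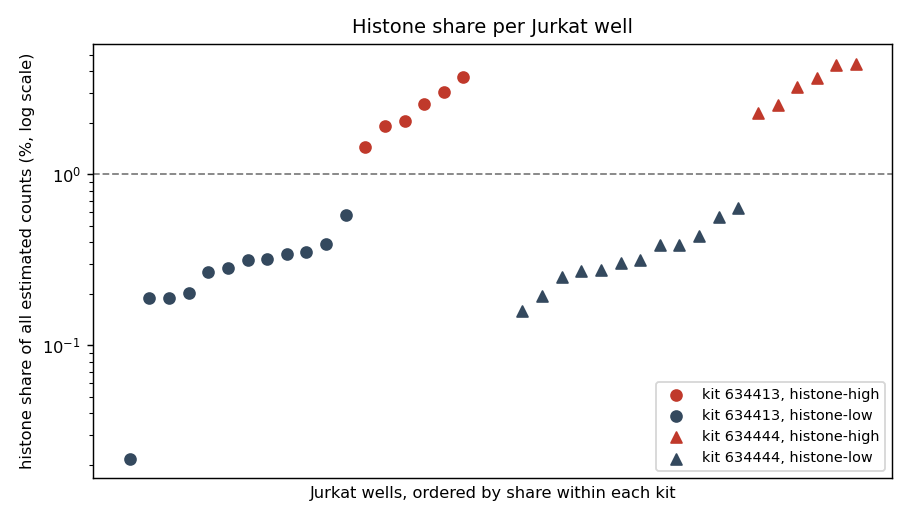
Histone share of all estimated counts in percent on a log scale (y axis) for each Jurkat well, ordered within each kit (x axis); circles are kit #634413, triangles kit #634444, red histone-high and blue histone-low, and the dashed line is 1%. The 12 histone-high wells sit between 1.44% and 4.44%, above the highest histone-low well at 0.632%, and a single well sits far below the rest at 0.0218%.

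The high share was spread over all 5 histone classes and was not carried by a few genes. The H1 genes, which encode linker histones, took 0.626% ± 0.240 (SD, n = 12) of all counts in histone-high wells and 0.0917% ± 0.0459 (SD, n = 24) in histone-low wells. For the core histones the means were 0.778% and 0.0700% for H2A, 0.656% and 0.0546% for H2B, 0.461% and 0.0475% for H3, and 0.417% and 0.0546% for H4. Within the histone counts of histone-high wells, H1 made up 21.04% ± 2.48, H2A 26.9% ± 3.42, H2B 22.05% ± 1.87, H3 15.5% ± 1.77 and H4 14.5% ± 3.60 (SD, n = 12). The composition was thus close from one histone-high well to the next, and wider among histone-low wells, where H1 ranged from 14.2% to 78.97% of the histone counts. The 78.97% came from well 17 of kit #634413, which had only 195 histone counts. In histone-low wells of kit #634444 the highest H1 part was 52.8%.

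H4C3, an H4 gene, had 190 to 877 CPM of all counts (counts scaled to a fixed library total) in histone-high wells (median 492.97) and 0 to 150.4 in histone-low wells (median 38.5). H2AC6, an H2A gene, had 124 to 641 CPM of all counts (median 287) against 0 to 147 (median 16.1). H1-4, a linker histone gene, had 418 to 3316 CPM of all counts (median 1728) against 0 to 506 (median 193). The ranges of H4C3 did not overlap between the groups, and those of H2AC6 and H1-4 overlapped only at their edges. H1-5, H2AC19 and H1-4 took the largest shares of counts in histone-high wells, with means of 2444, 1852 and 1627 CPM of all counts. Per length the order was different, with H3C2 (mean 3267 TPM), H4C11 (3094 TPM) and H2AC14 (3052 TPM) ahead of H2AC19 (2911 TPM) and H1-5 (2888 TPM).

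Of the 73 genes, 61 had a count in at least 9 of the 36 wells and a mean above 0 in histone-low wells, and 58 of these had a mean at least 4-fold higher in histone-high wells, up to 28.4-fold for H2BC13, with a median ratio of 10.3. Some rule genes stood apart. H1-10, which encodes a linker histone known as replication independent, had a mean of 251 CPM of all counts in histone-high and 137 in histone-low wells, a ratio of 1.83. In 7 rule genes no Jurkat well had a count, among them H1-1, H2AC1 and H2BC1. H3C14 and H3C15 had equal counts in all 36 wells, and H2AC18 had counts in 10 wells, none of them histone-high, against 29 wells for H2AC19: these are near-identical copies whose reads kallisto cannot assign, so only their sum is safe (H2AC18 plus H2AC19: mean 1852 CPM of all counts in histone-high and 138 in histone-low wells).

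**Figure D2:**
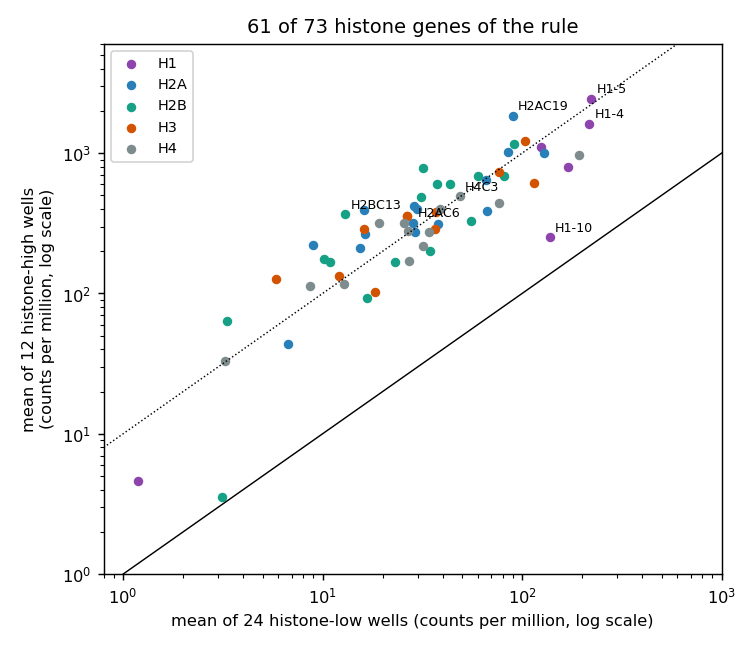
Mean CPM of all counts of 61 of the 73 rule genes in the 24 histone-low wells (x axis) and the 12 histone-high wells (y axis), both on log scales and coloured by histone class; the solid line marks equal means and the dotted line a ratio of 10. Most genes follow the dotted line, while H1-10 and the sparsely counted H2BC6 sit closer to the solid line.

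The cells were checked against their label. All 20 T cell markers had counts, and their summed CPM (from here on computed after removal of the histone genes and with TMM scaling) was 2741 to 7503 per well. The 20 markers of the melanoma line summed to 0 to 67.0 CPM, with DCT, PMEL, TYRP1, CAV1 and TIMP3 at 0 in every Jurkat well. The groups had similar depth. Total counts were 562544 to 1443975 in histone-high wells and 413959 to 1313483 in histone-low wells. Histone-high wells had 7153 ± 802 genes with at least 10 counts (SD, n = 12) and histone-low wells 6974 ± 1167 (SD, n = 24), a difference within the spread (exact permutation test within kits, two-sided, p = 0.576, adjusted p = 0.918 over 8 measures). Likewise no difference was detected in total counts without histone genes (adjusted p = 0.918), in the share of nuclear rRNA (14.8% ± 2.97 against 14.1% ± 2.40, adjusted p = 0.918), of protein coding RNA (71.6% ± 2.81 against 72.2% ± 2.36, adjusted p = 0.918) or of lncRNA (2.34% ± 0.714 against 2.38% ± 0.685, adjusted p = 0.974), in the same exact permutation test. The shares of nuclear copies of mitochondrial genes (adjusted p = 0.974), snRNA (adjusted p = 0.918) and snoRNA (adjusted p = 0.918) gave the same answer in this permutation test. The nuclear rRNA share was taken from estimated counts on rRNA genes and the rDNA unit, without histone counts. It is a different measure from the study's ribosomal percentages, which came from reads mapped to the genome, and the values should not be compared.

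Outside the histone genes, no gene passed the test between histone-high and histone-low wells. With edgeR's quasi-likelihood test and kit as covariate, 0 of 10563 genes (0.0%) had an adjusted p under 0.05. At an unadjusted p under 0.05 there were 372 genes (3.52%), 197 higher (1.87%) and 175 lower (1.66%). The median log2 fold change over all genes was -0.03. DESeq2 called 13 genes (0.123%), and limma on log2(TPM + 1) called 9 (0.0852%). On counts simulated with edgeR's own dispersion estimates and no kit effect, DESeq2 made more false calls than edgeR. This setting may favour edgeR, so it cannot decide between the tools. Calls that DESeq2 alone made are to be read with care. No gene in either direction (0.0%) had CPM ranges that did not overlap between the groups. The values below therefore describe genes that did not pass the edgeR test, unless another tool is named.

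Relatives of the histone genes were among the leading genes outside the rule. ENSG00000282988 (chr6:26195595-26199293, minus strand, named after its values were seen) had 20.7 to 1163 CPM in histone-high wells (median 455) and 0 to 280 in histone-low wells (median 7.83), a log2 fold change of 3.30 ± 0.69 (SE; edgeR adjusted p = 0.113). Its annotated span covers H3C4 and H2AC7, and its transcripts match these genes at 100% identity over 487 and 436 bases, so its reads cannot be told apart from theirs. H2BC12L (chr21:43565182-43565648), an H2B gene on another chromosome, had 21.5 to 269 CPM (median 80.1) against 0 to 75.6 (median 11.9), a log2 fold change of 2.94 ± 0.64 (SE; edgeR adjusted p = 0.113). It is 98.9% identical to H2BC12 over 447 bases, and shared reads are again a limit. GENCODE marks ENSG00000274559 (chr21:5972924-5973383) as an artificial duplicate of H2BC12L, and it had the same means and fold change, so both entries of this gene are counted among the tested genes and among the DESeq2 and limma calls. H2BC27P, an H2B pseudogene named after its values were seen and 95.6% identical to H2BC26 over 363 bases, had a median of 65.4 CPM in histone-high wells and 0 in histone-low wells (edgeR adjusted p = 0.560). DESeq2 and limma both called H2BC12L (adjusted p = 0.000346 and 0.00771), and limma also called ENSG00000282988 (0.000739) and H2BC27P (0.00299). Over all alternatives the adjusted p of H2BC12L went from 0.000346 to 1.0, that of ENSG00000282988 from 0.000739 to 1.0 and that of H2BC27P from 0.00299 to 1.0.

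Of 10 genes listed as replication-independent histones, 7 were tested and 5 (71.4%) had a log2 fold change above 0, against 47.8% of all genes. The 1 member with an unadjusted p under 0.05 was higher, against 1.87% of all genes. That gene was H2AX, whose protein is phosphorylated at DNA breaks and whose transcript holds the hairpin word. No other tested member of this list holds the word, so the place of H2AX in it is uncertain. H2AX had 139 to 814 CPM in histone-high wells (median 308) and 0 to 505 in histone-low wells (median 77.7). All 12 histone-high wells lay above the histone-low median, and 17 of 24 histone-low wells lay below the lowest histone-high well, but the log2 fold change of 1.68 ± 0.52 (SE) did not pass edgeR (adjusted p = 0.772). The variants H2AZ1, at 217 ± 112 against 193 ± 104 CPM, and H3-3B, at 291 ± 109 against 256 ± 129 CPM (SD, n = 12 and 24), differed by less than the spread between wells (adjusted p = 1.0 for both). H3-3A and MACROH2A1 had log2 fold changes of 0.16 and -0.01.

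None of the factors that make and process histone mRNA passed the test. SLBP had 98.7 to 566 CPM in histone-high wells (median 218) and 14.6 to 391 in histone-low wells (median 154), with a log2 fold change of 0.62 ± 0.35 (SE; edgeR adjusted p = 1.0). NPAT, the coactivator of histone gene transcription, had 0 to 454 CPM (median 43.99, mean 91.7) against 0 to 146 (median 44.3, mean 45.4), with a log2 fold change of 0.99 ± 0.69 (SE; edgeR adjusted p = 1.0). Of the 15 tested genes of histone mRNA processing, 11 (73.3%) had a log2 fold change above 0, against 47.8% of all genes. Their median was 0.28, and none had an unadjusted p under 0.05. Among 24 histone chaperones, the proteins that escort histones to DNA, 17 (70.8%) lay above 0 with a median of 0.26. CHAF1A, the large subunit of the assembly factor CAF-1, was the only chaperone with an unadjusted p under 0.05, at means of 245 and 157 CPM (edgeR adjusted p = 1.0). At that p 1.87% of all genes were higher.

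TYMS, which makes thymidylate for DNA, had the smallest p among genes of DNA precursor synthesis. Its level was 548 to 1842 CPM in histone-high wells (median 999.8) and 82.1 to 1535 in histone-low wells (median 435). Every histone-high well was above the histone-low median and 18 of 24 histone-low wells were below the lowest histone-high well. The log2 fold change was 1.08 ± 0.25 (SE; edgeR adjusted p = 0.148), and it was 1.11 in kit #634413 and 1.05 in kit #634444. DESeq2 called TYMS (adjusted p = 0.0363), limma did not (0.204), and over all alternatives its adjusted p went from 0.00935 to 1.0. RRM2, a subunit of ribonucleotide reductase, had 265 to 945 CPM (median 614) against 0 to 576 (median 145), a log2 fold change of 1.75 ± 0.55 (SE; edgeR adjusted p = 0.772). Its partner RRM1 had means of 357 and 250 CPM (edgeR adjusted p = 1.0). Over the 23 tested genes of nucleotide synthesis, 14 (60.9%) lay above 0, against 47.8% of all genes, and the median log2 fold change was 0.13. The rest of the list was therefore spread around the median of all genes.

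Genes of the replication fork leaned to the histone-high side as a list. Of 33 tested, 29 (87.9%) had a log2 fold change above 0, against 47.8% of all genes, and their median was 0.54. None passed the adjusted test, and 4 had an unadjusted p under 0.05 in the higher direction, against 1.87% of all genes: POLE2, POLA1, CLSPN and LIG1. The list was not tested as a whole. POLE2, a subunit of DNA polymerase epsilon, had CPM above 0 in 7 of 12 histone-high wells (highest 105) and in 4 of 24 histone-low wells (highest 26.1; edgeR adjusted p = 0.148, DESeq2 0.0363, limma 0.348, range over alternatives 0.0149 to 1.0). POLA1, the catalytic subunit of the primase-associated polymerase, had 29.1 to 238 CPM (median 146) against 0 to 163 (median 28.9; edgeR adjusted p = 0.800). CLSPN, which relays replication stress to CHK1, had means of 379 and 170 CPM, and LIG1, which joins lagging-strand fragments, had means of 314 and 166 CPM, each with an edgeR adjusted p of 1.0. PCNA, the sliding clamp, had 140 to 676 CPM (median 298) against 24.4 to 593 (median 214), with a log2 fold change of 0.49 ± 0.31 (SE; edgeR adjusted p = 1.0). The summed CPM of the 34 fork genes was 3219 to 5799 in histone-high wells (median 4717) and 1141 to 4883 in histone-low wells (median 2967). All 12 histone-high wells lay above the histone-low median, and no histone-low well exceeded the highest histone-high well.

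Most tested genes of S phase repair and of origin licensing also had log2 fold changes above 0, and differences between the lists were not tested. Of 19 tested genes of S phase repair and checkpoint, 17 (89.5%) lay above 0, against 47.8% of all genes, with a median log2 fold change of 0.54. USP1 and RAD54L had an unadjusted p under 0.05 and were higher, against 1.87% of all genes. Of 26 genes of origin licensing and the replicative helicase, 20 (76.9%) lay above 0 with a median of 0.35. CDC45, the helicase component that joins when origins fire, had 64.6 to 715 CPM (median 142) against 0 to 199 (median 66.2; edgeR adjusted p = 0.879). GMNN, which encodes the licensing inhibitor geminin, had means of 73.98 and 30.6 CPM, and MCM4, a subunit of the helicase, had means of 322 and 190 CPM (edgeR adjusted p = 1.0 for both). Both were picked from the higher members of the list. Members with a log2 fold change below 0 included DBF4 (-0.86), GINS2 (-0.59), ORC2 (-0.36), ORC1 (-0.31) and MCM10 (-0.17), none with an unadjusted p under 0.05. MCM2 had medians of 575 and 455 CPM, MCM5 of 304 and 248.5 CPM, CDC6 of 90.3 and 85.3 CPM and CDT1 of 92.6 and 91.7 CPM (edgeR adjusted p = 1.0 for each). The sign of the CDC6 and CDT1 fold changes turned under several alternatives, so no direction is given for them.

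**Figure D3:**
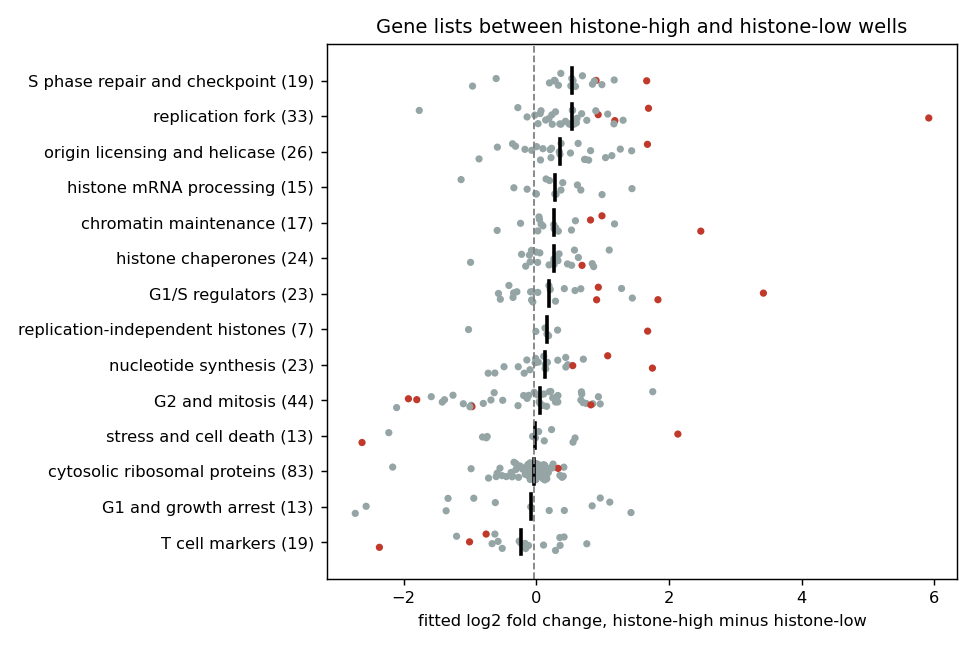
Fitted log2 fold change of each tested list gene between histone-high and histone-low wells (x axis), by gene list with the number of tested genes in brackets (y axis); black bars are list medians, the dashed line is the median of all genes, and red points have an unadjusted p under 0.05. The medians run from 0.54 for replication fork and S phase repair genes to -0.24 for T cell markers, and no point passes the adjusted threshold.

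Among 23 tested G1/S regulators 13 (56.5%) lay above 0, against 47.8% of all genes, with a median of 0.19. E2F8, E2F7, TFDP1 and MYBL2 had an unadjusted p under 0.05 and were higher, against 1.87% of all genes. E2F8, an atypical E2F repressor, had 0.828 to 385 CPM in histone-high wells (median 61.5) and was at 0 in 16 of 24 histone-low wells (highest 84.01; edgeR adjusted p = 0.477). Limma called it (adjusted p = 0.00104, range over alternatives 0.00104 to 1.0). CCNE2, a cyclin of the G1/S transition, had 0 to 95.97 CPM against 0 to 113, and CCNE1 had a count in 5 of 12 and 4 of 24 wells and was left out by the filter on low counts. Of 17 genes of chromatin maintenance, among them cohesin, 15 (88.2%) lay above 0 with a median of 0.27. SMC1A, a core subunit of cohesin, had 378 to 862 CPM (median 638) against 19.5 to 799.7 (median 351; edgeR adjusted p = 0.921).

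**Figure D4:**
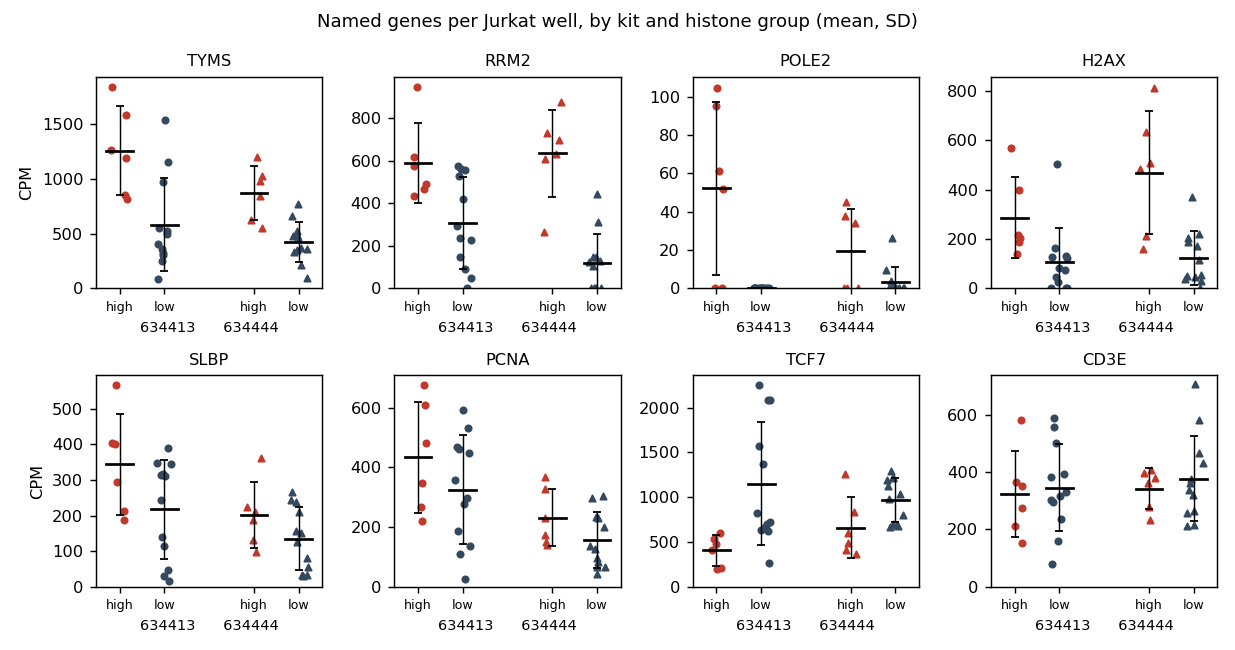
CPM (y axes, from 0) of 8 named genes in each well, by kit and histone group (x axes); bars are means with SD, red points histone-high and blue points histone-low wells. TYMS, RRM2 and H2AX means are higher in histone-high wells of both kits, SLBP and PCNA overlap widely, TCF7 is lower in histone-high wells of both kits, and CD3E means are close in both kits.

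Of 44 tested genes of G2 and mitosis 24 (54.5%) lay above 0, against 47.8% of all genes, with a median log2 fold change of 0.05. MKI67, a marker of cycling cells, was the single member with an unadjusted p under 0.05 that was higher, at 1203 to 3395 CPM (median 1785) against 0 to 4697 (median 686; edgeR adjusted p = 1.0). CENPF, HMMR and CCNB1 were the members with an unadjusted p under 0.05 that were lower. At that p 1.87% of all genes were higher and 1.66% lower. CCNB1, the mitotic cyclin, had 0 to 137 CPM (median 52.2) against 0 to 735 (median 42.1), TOP2A, which untangles DNA, 191 to 1071 (median 432) against 0 to 2702 (median 103), and CDK1, the mitotic kinase, 13.1 to 191 (median 90.05) against 0 to 504 (median 7.75). The summed CPM of the 44 genes was 4096 to 11709 in the 12 histone-high wells. In the histone-low wells it was at most 3954 in 17 wells (lowest 991) and at least 14291 in 7 wells (highest 29526), 3 of kit #634413 and 4 of kit #634444. No histone-low well had a sum inside the range of the histone-high wells. This pattern was noticed in the data and was not tested. The well with the lowest histone share, well 17 of kit #634413 with 195 histone counts, had the highest sum.

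**Figure D5:**
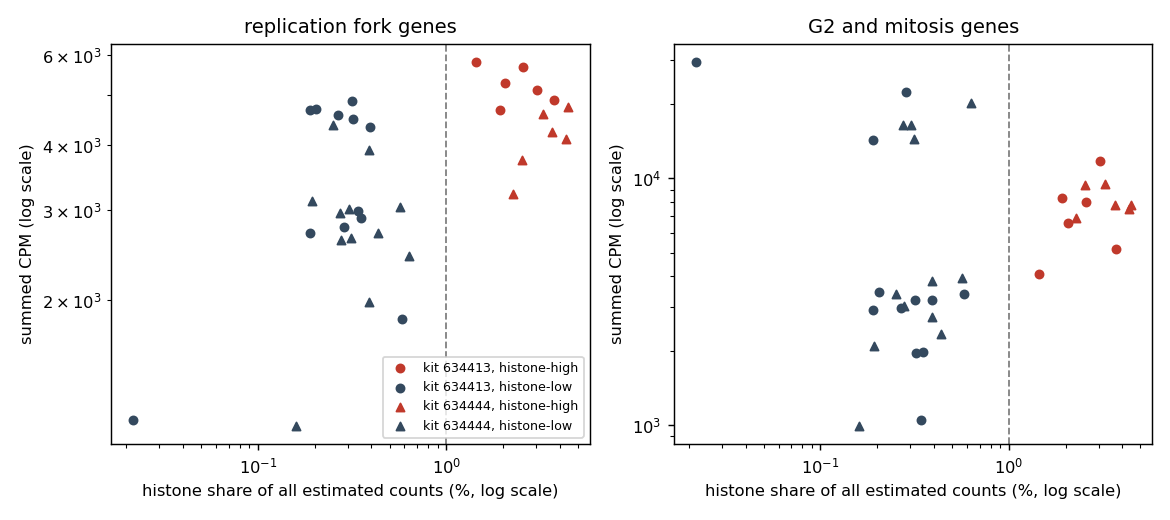
Summed CPM of replication fork genes (left) and of G2 and mitosis genes (right) on log scales (y axes) against the histone share in percent on a log scale (x axes) for each Jurkat well; colours and symbols as for the plot of shares, and the dashed line is 1%. On the right the histone-high wells fill 4096 to 11709 CPM, and histone-low wells lie at up to 3954 or from 14291 CPM.

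None of the 19 tested T cell markers passed the test. Of these, 6 (31.6%) had a log2 fold change above 0, against 47.8% of all genes, with a median of -0.24. TCF7, PTPRC and TRAC had an unadjusted p under 0.05 and were lower, against 1.66% of all genes. PTPRC, which encodes the phosphatase CD45, had means of 262 and 451 CPM, and TRAC, the constant part of the T cell receptor alpha chain, had means of 17.1 and 88.9 CPM (edgeR adjusted p = 1.0 for both). TCF7, a transcription factor of T cell development, had 191 to 1260 CPM in histone-high wells (median 486) and 264 to 2257 in histone-low wells (median 903). Only 1 of 12 histone-high wells lay above the histone-low median, and the log2 fold change was -1.01 ± 0.25 (SE; edgeR adjusted p = 0.274). DESeq2 called TCF7 (adjusted p = 0.0412), limma did not (0.393), and the range over alternatives was 0.0175 to 1.0. The related factor LEF1, which is not in the list of T cell markers and was named after its values were seen, had medians of 553 and 941 CPM (edgeR adjusted p = 0.772). SATB1, a chromatin organiser of T cells that is likewise outside the list and was named after its values were seen, had medians of 205 and 492 CPM (edgeR adjusted p = 0.772). In contrast CD3E, a chain of the T cell receptor complex, had similar means, at 333 ± 113 and 362 ± 149 CPM (SD, n = 12 and 24; edgeR adjusted p = 1.0). MYC, a growth-promoting transcription factor named after its values were seen, was at 0 in 6 of 12 histone-high wells (median 0.469 CPM, highest 207) and in 2 of 24 histone-low wells (median 115, highest 525). Limma called MYC lower (adjusted p = 0.0372, range over alternatives 0.0372 to 1.0), while edgeR gave an adjusted p of 0.993.

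The other leading genes had no common role in the lists. SYNE2, a protein linking the nucleus to the cytoskeleton, had 297 to 1282 CPM (median 657) against 0 to 828.5 (median 261; edgeR adjusted p = 0.425). BOLA3, an iron-sulphur cluster factor, had CPM above 0 in 8 of 12 and 12 of 24 wells (edgeR adjusted p = 0.425). STT3B, a catalytic subunit of protein glycosylation, had 176 to 407 CPM (median 304) against 196 to 1035 (median 463; edgeR adjusted p = 0.477). EEF1AKMT4, a methyltransferase gene that overlaps a readthrough with its neighbour, was at 0 in 12 of 12 histone-high wells and in 12 of 24 histone-low wells (edgeR adjusted p = 0.148). It thus passed the filter on low counts through histone-low wells alone. The noncoding RNAs SEPSECS-AS1 and LINC02609 had CPM above 0 in 2 and 1 of 12 histone-high wells and in 16 and 15 of 24 histone-low wells (edgeR adjusted p = 0.425 and 0.477). Both passed that filter wholly or mainly through histone-low wells. Ribosomal protein genes lay around the median of all genes, with 35 of 83 (42.2%) above 0, against 47.8% of all genes, and a median of -0.04. Genes of G1 and growth arrest (6 of 13 above 0, median -0.08) and of stress and cell death (6 of 13, median -0.01) did so too.

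A difference between the kits in these fold changes was not detected. In the edgeR fit with a term for histone group by kit, 0 of 10563 genes (0.0%) had an adjusted p under 0.05 and 429 (4.06%) had an unadjusted p under 0.05. DESeq2 called 20 genes for this term, 12 higher and 8 lower. In kits #634413 and #634444 the log2 fold changes were 0.93 and 2.47 for RRM2, 1.39 and 1.94 for H2AX and -1.52 and -0.53 for TCF7 (unadjusted interaction p = 0.186, 0.655 and 0.0425, edgeR adjusted p = 1.0 for each). Among the named genes BOLA3 and POLE2 had the smallest interaction p (unadjusted 0.00461 and 0.00577, edgeR adjusted p = 0.710 for both). Their log2 fold changes in kit #634444 alone were 1.29 and 2.50, and both fell below the filter on low counts in kit #634413 alone.

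Promoters of 2 histone genes, RRM2 and TYMS are shown because these genes were compared above. The 150 bases before each start come from RefSeq on GRCh38.p14, which had an entry for 67 of the 73 rule genes, and capitals mark any of 4 kinds of word, searched on either strand. These are the CCAAT box, the TATA box (read as TATAAA), the H1 box (read as AAACACA) and the E2F words TTTCCCGC, TTTCGCGC, TTTGCCGC and TTTGGCGC, and none of them contains another.
H1-4, chr6:26156179-26156328, plus strand: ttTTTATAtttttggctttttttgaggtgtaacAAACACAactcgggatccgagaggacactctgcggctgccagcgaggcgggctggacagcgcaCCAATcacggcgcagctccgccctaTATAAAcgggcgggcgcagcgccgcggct
H3C2, chr6:26032100-26032249, minus strand: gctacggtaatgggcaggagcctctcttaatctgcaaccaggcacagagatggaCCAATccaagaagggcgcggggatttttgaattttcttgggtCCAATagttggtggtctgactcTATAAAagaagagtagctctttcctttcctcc
RRM2, chr2:10122589-10122738, plus strand: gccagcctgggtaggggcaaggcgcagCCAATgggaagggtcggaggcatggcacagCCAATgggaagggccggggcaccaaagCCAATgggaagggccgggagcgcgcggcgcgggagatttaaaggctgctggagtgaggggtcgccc
TYMS, chr18:657503-657652, plus strand: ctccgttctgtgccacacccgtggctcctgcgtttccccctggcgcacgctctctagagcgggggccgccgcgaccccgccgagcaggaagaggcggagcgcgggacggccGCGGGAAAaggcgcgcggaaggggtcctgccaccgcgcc
CCAAT occurred in 55 of 67 histone genes (82.1%) and in 27.8% of all 27305 genes with a promoter entry. TATAAA occurred in 55.2% of the histone genes and 8.3% of all genes. Of the 70 genes in the lists for the fork, licensing and nucleotide synthesis, 33 (47.1%) held CCAAT and 2.86% held TATAAA. The H1 box occurred in 5 of the 6 genes H1-1 to H1-6 and in 3.37% of all genes. An E2F word occurred in 10.4% of the histone genes, in 17 of 70 genes (24.3%) of the lists for the fork, licensing and nucleotide synthesis, and in 2.24% of all genes. RRM2 has a second RefSeq start, whose window (chr2:10122418-10122567) held none of the words, and neither did the window of POLE2 (chr14:49688215-49688364). These matches describe the letters of the window and were not tested.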

How the data were processed

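Single Jurkat and A375 cells were sorted by flow cytometry, and total RNA libraries were made with either kit. Per the labels and the study's methods, the authors quantified stranded reads with kallisto 0.43.1 against Ensembl transcripts (hg38; STAR 2.5.3 is also listed) and deposited estimated counts (expected counts, which need not be whole) and TPM per transcript. Reads carry no molecular identifiers here, so intervals cover counting error only.

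Transcripts were summed to genes with GENCODE v44. Transcripts not found there were kept under their own identifier. Depth was 413959 to 1443975 estimated counts per Jurkat well. No pair among the 36 wells had identical values. Histone genes of the rule, spikes and rDNA were removed before library sizes, while genes annotated as rRNA were kept. Counts were rounded, genes needed at least 5 counts in 25% of the wells, and edgeR 4.0.16 (TMM, quasi-likelihood test, kit as covariate, Benjamini-Hochberg threshold 0.05) was the main test, checked on simulated data. DESeq2 1.42.0 and limma 3.58.1 on log2(TPM + 1) were alternatives. Well measures were compared by exact permutation within kits, with Benjamini-Hochberg adjustment. BLAST 2.17.0 gave identities. The wells, gene lists and tests were chosen with earlier results of these data known. Named were the 5 genes with a gene symbol and the smallest p in each direction (none passed), up to 4 called members per list, and 20 fixed cell cycle, histone and T cell genes, and the genes marked as chosen after their values were seen, among them POLA1, CLSPN, LIG1, RRM1, CHAF1A, CDC45, E2F8, SMC1A and other list members with an unadjusted p under 0.05. CPM ranges give the lowest and highest well. Alternatives covered normalization, low counts, histone genes kept, thresholds of 0.5% and 2%, a continuous share, depth, index block, each kit, thinning and leaving out each histone-high well. A gene of the rule is counted in the totals but is not reported here by itself.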

Additional observations from a re-analysis of the deposited data

Results flagged for a closer look

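Among the 6 histone-high wells of each kit, single wells that lay far from the other 5 were looked for with Dixon's test. Its 95% critical value of 0.625 is passed by chance in about 1 of 20 groups of normally distributed values. CPM with many zeros need not be so distributed, and where 5 wells are at 0 any value above 0 passes. There were 15 values past the critical value among the 101 groups of values examined, and that rate need not hold for them. Well 9 of kit #634413, the well with the lowest histone share of the group, had 454 CPM of NPAT (next highest 152) and 945 CPM of RRM2 (next 619). Well 16 of that kit had 176.5 CPM of CCNA2 (next 81.2), and well 6 of kit #634444 had 167 (next 74.3). Well 14 of kit #634444 had 183 CPM of CDC6 (next 87.6), and well 3 had 208 CPM of CDT1 (next 108) and 5305 summed CPM of T cell markers (next 3367). Well 10 of kit #634444 had the highest share of nuclear rRNA, 22.4% (next 14.04%), and the lowest of snoRNA, 0.238% (next 0.348%). Well 6 of kit #634444 had the highest share of lncRNA, 4.36% (next 2.46%), and 48.1 summed CPM of melanoma line markers (next 3.10). Well 6 of kit #634413 had the highest snRNA share, 0.635% (next 0.482%). SEPSECS-AS1 was at 0.873 CPM in well 15 of kit #634413 and at 4.81 CPM in well 10 of kit #634444, and LINC02609 at 4.69 CPM in well 16 of kit #634413, with the other wells at 0.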

How the results depend on the processing

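The absence of calls in the edgeR test held with library size scaling alone, with at least 10 counts in 50% of the wells, with histone genes kept, at thresholds of 0.5% and 2%, with depth or index block as covariate, in each kit alone, and with each histone-high well left out (0 to 0 calls). It did not hold with DESeq2 (13 calls), a continuous histone share (4), wells thinned to equal depth (1) or limma on TPM (9), nor with genes kept from 1 count in 3 wells (893 calls, 659 of them lower). Of those 893, 863 were not in the main table and 615 had no count in a histone-high well. The call in thinned wells was ENSG00000282988. With a continuous share the calls were ENSG00000282988, both entries of H2BC12L, and EEF1AKMT4. The limma calls included ENSG00000282988, H2BC27P and both entries of H2BC12L. Apart from EEF1AKMT4, these named genes resemble rule genes, so their calls are limited by reads shared with the genes that chose the wells. EEF1AKMT4 has another limit: it had no count in a histone-high well and passed the filter on low counts through histone-low wells alone. The interaction with kit gave 20 calls with DESeq2 and 0 with at least 10 counts in 50% of the wells. With library size scaling alone the median log2 fold change of the stress and cell death list turned from -0.01 to 0.03, and no other list median changed sign under that scaling or with histone genes kept. The cause of these changes was not tested. No paired analysis was possible because the labels give no replicate numbers, and the well numbers used here only follow the order of the samples. The A375 comparison and its alternatives could not be run.

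Some differences that did not pass any threshold turned sign. Within kit #634444 alone, total counts differed by -58508, genes with at least 10 counts by -158 and the lncRNA share by 0.0726 points. Within kit #634413 alone the shares differed by -0.230 points for nuclear rRNA, 0.372 for protein coding RNA, 0.0431 for nuclear copies of mitochondrial genes and -0.000381 for snRNA. With medians, lncRNA differed by 0.0478 points and the nuclear copies by 0.0519. Of log2 fold changes, at the 0.5% threshold CCNE2 became -0.26, CDC6 -0.14, CDT1 0.11 and TOP2A 0.068. At 2% NPAT became -0.17 and CDC6 -0.23. In kit #634413 alone CCNE2 became -0.49, CDC6 -0.12 and H2AZ1 -0.49, and in kit #634444 alone CDK1 became -0.054. With depth as covariate CDT1 became 0.18 and TOP2A 0.033, with index block 0.12 and 0.73, and with limma on TPM 0.28 and 1.63, where H2AZ1 became -0.0013. Leaving out well 9 of kit #634413 gave -0.0044 for CDC6 and 0.0069 for CDT1, and leaving out well 14 of kit #634444 gave -0.30 for CCNE2 and -0.041 for CDC6. Over the 12 wells left out in turn the range was -0.30 to 0.345 for CCNE2, -0.041 to 0.229 for CDC6 and -0.23 to 0.0069 for CDT1.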
